A study of Homo sapiens with 4 samples.

Results

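The genes described here encode 8 proteins of the cardiac sarcomere and the 2 natriuretic peptides of the heart: MYH6, MYH7, MYL2, MYL3, TNNT2, TNNI3, ACTC1, ACTN2, NPPA and NPPB. They are 10 of the 19821 protein-coding genes placed on chromosomes 1 to 22 and X. The members were selected by function, as heart muscle genes held to be silent in stem cells, with earlier results of these data known. MYH6 was picked on its lower H2AK119ub covered length in the knockdown. For each gene the peaks of both lists were taken from a window made of the gene span and 20 kb on either side. The windows of MYH6 and MYH7 overlap, as do those of NPPA and NPPB, so the 10 genes stand for 8 separate loci and neighbouring members share peaks. The wild-type list held 30 peaks in these windows of 32791 in all, and the knockdown list 21 of 34390.

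The sarcomere is the contractile unit of striated muscle, in which myosin thick filaments pull on actin thin filaments that are anchored at the Z disc. Troponin on the thin filament makes this pull depend on calcium. The atria and ventricles also release natriuretic peptides, hormones that lower blood volume and pressure. H2AK119ub is ubiquitin on a lysine in the C-terminal tail of histone H2A. Polycomb repressive complex 1 places it, and in stem cells it is found at many developmental genes that are not transcribed, often at CpG-rich promoters.

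H1 is an established line of human embryonic stem cells, grown here in mTeSR1 medium. The wild-type cells were untreated and the other group received an shRNA against YTHDF1, a reader protein of m6A-modified RNA. Each group had 1 H2AK119ub library and 1 input library, and the peak lists of the 2 H2AK119ub libraries were analysed. The series compared these profiles. Since the wild-type cells were untreated, loss of YTHDF1 and treatment with an shRNA as such cannot be told apart. With 1 library per group no difference below has a replicate check or a test, and the read depth is unknown. RNA levels were not analysed here, so neither the silence of the cardiac genes nor the knockdown was checked. Over the whole genome the knockdown list covered 168 Mb and the wild-type list 195 Mb, a difference of -13.7%.

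Promoters of these genes differ widely in CpG content, so the 6 that show this range are printed first. Each sequence holds the 250 bases before a start listed by RefSeq (GRCh38.p14), 5′ to 3′ on the gene's own strand, and capitals mark CpG dinucleotides. ACTN2 (chr1:236686249-236686498, plus strand) and the upper start of MYL3 (chr3:46882183-46882432, minus strand) are CpG-rich. A second start inside MYL3 (chr3:46861685-46861934) is CpG-poor, as are ACTC1 (chr15:34795550-34795799), MYH6 (chr14:23408274-23408523) and NPPA (chr1:11847784-11848033), all on the minus strand.
ACTN2: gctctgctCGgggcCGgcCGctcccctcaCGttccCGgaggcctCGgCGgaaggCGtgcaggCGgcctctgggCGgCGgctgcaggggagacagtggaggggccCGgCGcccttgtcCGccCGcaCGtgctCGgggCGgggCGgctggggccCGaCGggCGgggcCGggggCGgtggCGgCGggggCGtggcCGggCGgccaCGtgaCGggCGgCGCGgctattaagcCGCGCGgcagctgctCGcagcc
MYL3 upper start: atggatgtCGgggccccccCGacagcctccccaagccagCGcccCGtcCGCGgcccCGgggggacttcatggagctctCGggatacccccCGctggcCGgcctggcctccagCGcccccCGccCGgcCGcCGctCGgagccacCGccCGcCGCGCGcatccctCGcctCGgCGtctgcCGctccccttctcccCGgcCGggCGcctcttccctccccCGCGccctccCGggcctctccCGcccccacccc
MYL3 inner start: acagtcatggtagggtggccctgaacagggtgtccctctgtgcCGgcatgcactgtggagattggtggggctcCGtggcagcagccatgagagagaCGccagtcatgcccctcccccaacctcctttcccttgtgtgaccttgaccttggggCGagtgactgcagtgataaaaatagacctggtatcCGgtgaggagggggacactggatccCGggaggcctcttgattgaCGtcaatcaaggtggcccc
ACTC1: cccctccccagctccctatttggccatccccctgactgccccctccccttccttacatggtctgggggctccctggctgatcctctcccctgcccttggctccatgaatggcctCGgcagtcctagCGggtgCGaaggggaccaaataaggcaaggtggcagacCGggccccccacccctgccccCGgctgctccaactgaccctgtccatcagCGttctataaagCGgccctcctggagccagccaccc
MYH6: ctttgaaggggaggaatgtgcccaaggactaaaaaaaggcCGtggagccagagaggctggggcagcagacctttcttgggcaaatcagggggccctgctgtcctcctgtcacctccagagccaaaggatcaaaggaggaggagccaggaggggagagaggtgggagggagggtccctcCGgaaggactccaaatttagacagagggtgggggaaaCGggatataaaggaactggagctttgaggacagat
NPPA: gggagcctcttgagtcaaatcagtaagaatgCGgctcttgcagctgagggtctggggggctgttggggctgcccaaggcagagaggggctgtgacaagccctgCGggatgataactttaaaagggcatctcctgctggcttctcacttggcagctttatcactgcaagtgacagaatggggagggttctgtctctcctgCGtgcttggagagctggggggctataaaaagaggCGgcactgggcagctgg

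These stretches hold 38 CpG dinucleotides in ACTN2, 32 at the upper and 7 at the inner start of MYL3, 7 in ACTC1, 3 in MYH6 and 4 in NPPA. The hexamer TATAAA, the core of the TATA box, begins 30 bases before the start in MYH6, 31 bases before it in ACTC1 and 29 bases before it in NPPA. On both strands of the 300-base promoters (250 bases before to 50 after a start), it was found in 3 of 10 listed member promoters and in 9.46% of 22132 promoters of protein-coding genes. A CArG box, the binding motif of serum response factor and its own reverse complement, was found in 1 of the 10, that of ACTC1, where it begins 109 bases before the start, against 1.25% of all promoters. A match describes the letters and does not show binding.

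All 10 genes had at least 1 peak in their window in both lists, where 79.4% of protein-coding genes had a wild-type peak and 79.8% a knockdown peak. The length of the window inside peaks, called covered length here, was at least 1 kb lower in the knockdown for 7 of the 10 genes, against 46.4% of all protein-coding genes. It was at least 1 kb higher for 1, ACTC1, against 22.5% of all, and it differed by less than 1 kb for TNNI3 and ACTN2. The mean over the members was 16.7 kb after knockdown, against 23.4 kb in wild-type cells (-28.3%). For all protein-coding genes it was 12.9 and 15.0 kb (-14.0%). The members' count and mean include MYH6, picked on this value, and count peaks in overlapping windows more than once. At least 1 kb lower were 6 of 9 members without MYH6, and 5 of 8 without MYH7 and NPPB. Both of these sets were made after the data were seen. With each base of the 8 loci counted once, the total was 166 kb after knockdown, against 211 kb in wild-type cells (-21.6%). The median difference was -9.10 kb for the members, against -0.423 kb over all protein-coding genes. The values for all protein-coding genes include 3333 without a peak in either list, which could not differ, while every member had peaks. The median wild-type covered length was 16.8 kb for the members, against 8.60 kb over all protein-coding genes, so the members had more to lose. Of the wild-type peaks in the windows 17 of 30 had a score below the median of their list, and of the knockdown peaks 4 of 21. With the upper 50% of peaks by score in each list, 2 members were at least 1 kb lower and 2 higher, and the mean difference was 0.62 kb. Of all protein-coding genes 39.3% were then lower and 19.7% higher. Wild-type peaks cut by score to the covered length of the knockdown list left 4 members lower and 3 higher, where all genes had 35.7% lower and 32.4% higher. With equal covered length the members' counts were near these shares. In the upper 50% by score the share of members lower was below that of all genes, whose mean difference was -1.70 kb.

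**Figure D1:**
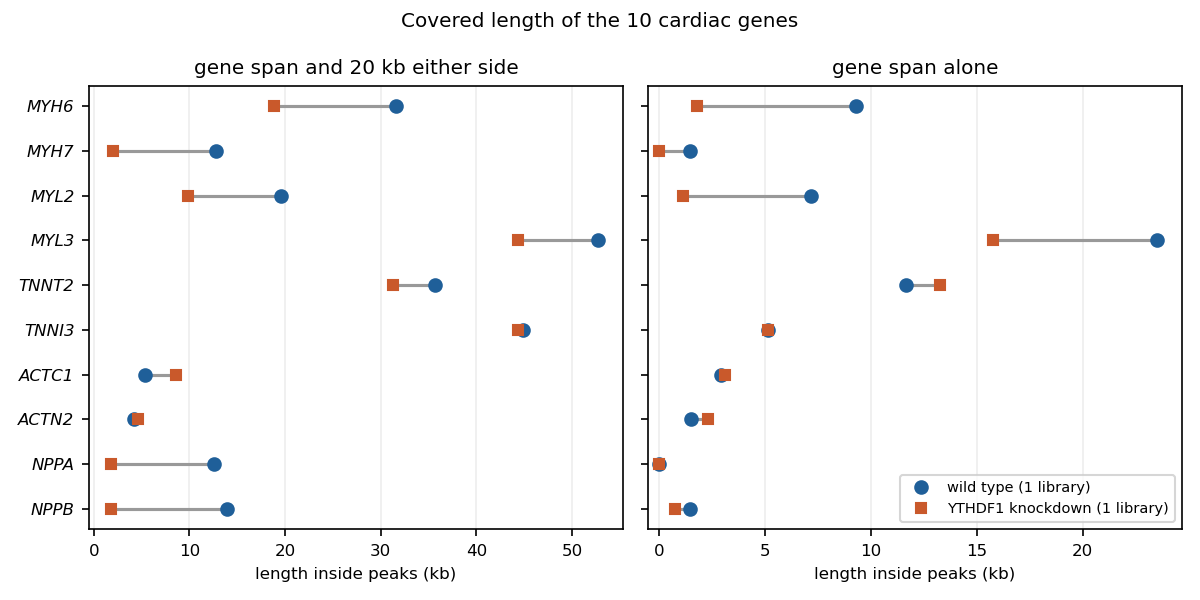
Length inside H2AK119ub peaks (kb, x axes) for each of the 10 genes, in the gene span and 20 kb either side (left) and in the gene span alone (right). Circles are the wild-type library and squares the knockdown library, 1 each, joined by a grey line. In the left panel MYH6, MYH7, MYL2, NPPA and NPPB lie 9.80 to 12.8 kb lower in the knockdown, while TNNI3 and ACTN2 nearly coincide.

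The 4 thick filament genes all had shorter covered lengths in the knockdown, with differences from -12.8 to -8.40 kb. MYH6 (chr14:23381987-23408273) encodes the alpha myosin heavy chain, the fast motor of the adult atrium. Its window held 31.6 kb in 6 wild-type peaks and 18.8 kb in 3 knockdown peaks, a difference of -12.8 kb. A decrease of this size or larger was seen at 4.65% of protein-coding genes. Only the 40.3% of genes with at least 12.8 kb covered in the wild type could show it. MYH6 was chosen for its difference, which is therefore a description. Inside the gene span the covered length was 9.29 kb in wild-type cells against 1.80 kb after knockdown. The wild-type list had a peak of 3.8 kb over the listed start of MYH6 (chr14:23406401-23410200, score 5.34), the CpG-poor promoter printed above. The nearest knockdown peak to that start lay 17.5 kb away. At the other end of the gene a wild-type peak of 9.4 kb (score 53.3) ran from IL25 and CMTM5 into MYH6, and the knockdown peak there, of 5.6 kb (score 41.9), stopped 1.19 kb short of it. Farther out, a peak over EFS, an adaptor protein gene, measured 12.6 kb in wild-type cells (score 167) against 14.8 kb after knockdown (score 177). The difference at MYH6 thus lay in the gene and next to it, and not in that strong peak. In the upper 50% by score the difference at MYH6 was 0.2 kb, with 18.6 kb in wild-type cells against 18.8 kb after knockdown, and with equal covered length it was -5.80 kb.

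An intron of MYH6 carries MIR208A, and MYH7 carries its relative MIR208B. Both microRNAs act in heart muscle on myosin gene expression. Their mature 3p strands are shown because they share a seed (bases 2 to 8, in capitals) while lying in differently marked sequence.
miR-208a-3p: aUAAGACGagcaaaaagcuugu
miR-208b-3p: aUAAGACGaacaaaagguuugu

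The strands are 22 bases long and identical at 19 of them. MIR208A (chr14:23388596-23388666) lay inside a wild-type peak of 3.4 kb with a score of 9.56. The knockdown peak next to it, of 1.8 kb with a score of 17.1, left it uncovered. MIR208B (chr14:23417987-23418063) and MHRT, a long noncoding RNA gene of the same locus, lay in no peak of either list.

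MYH7 (chr14:23412740-23435660) encodes the beta myosin heavy chain, the slow motor of the ventricle. Its window held 12.8 kb in 4 wild-type peaks and 2 kb in 1 knockdown peak. None of these 5 peaks touched a peak of the other list. A wild-type peak of 3.2 kb (score 7.11) reached 1.46 kb into the span, and the nearest knockdown peak lay 7.14 kb outside it. The 4 wild-type scores ran from 5.34 to 9.87, below the list's median of 16.5, and 3 of these peaks also belong to the MYH6 window. In the upper 50% by score the MYH7 window was empty in both lists. With equal covered length the difference at MYH7 was -0.6 kb, with 2.6 kb in wild-type cells against 2 kb after knockdown.

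MYL2 (chr12:110910845-110921449) encodes the ventricular regulatory light chain. Its window held 19.6 kb in 3 wild-type peaks and 9.80 kb in 2 knockdown peaks. Both knockdown peaks lay wholly inside wild-type peaks and shared their left edges. The peak at the lower-coordinate end of the gene measured 7.2 kb in wild-type cells against 4.2 kb after knockdown. The peak over the other end, of 5.6 kb and a score of 3.63, was in the wild-type list alone. Within the span 7.21 kb was covered in wild-type cells against 1.16 kb after knockdown. The distal peak measured 6.8 and 5.6 kb and held all of the long noncoding RNA gene VHRT in the wild type and 94.3% of it in the knockdown. In the upper 50% by score the difference at MYL2 was -2.60 kb, but between peaks at different places. There the wild-type list kept only the distal peak (score 24.8). The knockdown list kept only the peak at the lower-coordinate end of the gene (score 17.2). With equal covered length the difference at MYL2 turned to 3 kb.

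MYL3 (chr3:46857872-46882182) encodes the ventricular essential light chain. It had the longest covered length of the members in both lists, 52.8 kb in wild-type cells against 44.4 kb after knockdown. The difference of -8.40 kb lay in peaks above the median score and was the same in the upper 50% by score. The upper, CpG-rich start lay in a peak at the score ceiling of 1000 in both lists, of 32.2 kb in wild-type cells against 28.0 kb after knockdown, which also spans most of PTH1R, the parathyroid hormone receptor gene. The inner, CpG-poor start lay in a wild-type peak of 13.4 kb (score 52.5), and the nearest knockdown peak began 3.92 kb from it. The whole PTH1R span was covered over 25.9 kb in wild-type cells against 25.1 kb after knockdown, and the MYL3 span over 23.5 and 15.8 kb, so the difference lay mainly in MYL3.

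**Figure D2:**
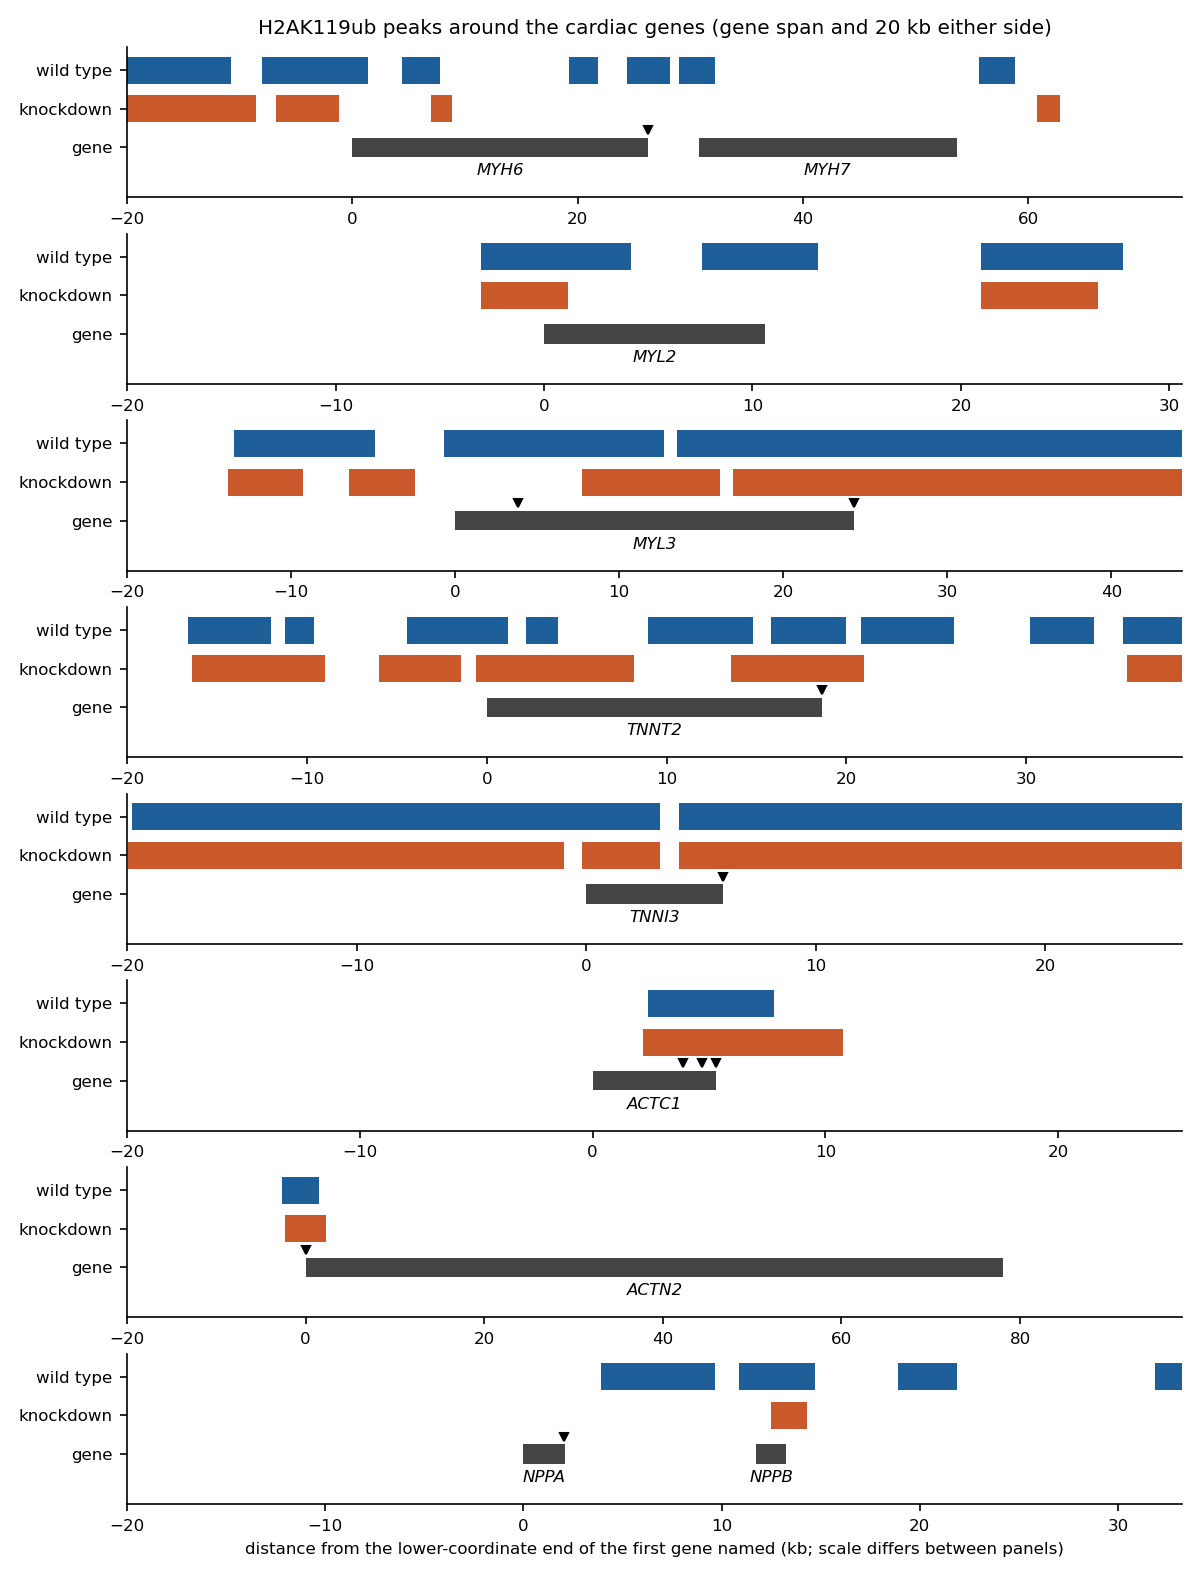
Peaks of the wild-type (blue) and knockdown (orange) libraries at the 8 loci, with the gene spans in grey and listed RefSeq starts as triangles. The x axes give the distance in kb from the lower-coordinate end of the first gene named, and peaks are cut at the window edges. Over the span of MYH7 and the start of MYH6 there is no knockdown peak, while the peaks at TNNI3, ACTN2 and the upper start of MYL3 nearly match.

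The thin filament and Z disc genes differed by smaller lengths, from -4.40 kb at TNNT2 to 3.20 kb at ACTC1. TNNT2 (chr1:201359014-201377680) encodes cardiac troponin T, which ties the troponin complex to tropomyosin. Its window held 35.7 kb in 9 wild-type peaks and 31.3 kb in 5 knockdown peaks. Within the TNNT2 span the order was opposite, with 11.7 kb in wild-type cells against 13.3 kb after knockdown. The lower value of the window lay at LAD1, an epithelial anchoring filament gene next to it, whose part of the window had 11 kb and 3.08 kb in these lists. The listed TNNT2 start lay in a peak in both lists, of 4.2 kb (score 31.6) and 7.4 kb (score 23.1). In the upper 50% by score the window held 12.7 kb in wild-type cells against 26.7 kb after knockdown, so the direction at TNNT2 turned with the score cut. The outermost knockdown peak, over LAD1, reached TNNI1, the slow skeletal troponin I gene.

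TNNI3 (chr19:55151767-55157732) encodes cardiac troponin I, the inhibitory subunit. Peaks filled 97.8% of its window in wild-type cells against 96.4% after knockdown, with 44.9 and 44.3 kb. Within the span both lists covered 5.17 kb. A peak at the ceiling of 1000 held the listed start in both lists, of 28.8 kb in wild-type cells against 27.2 kb after knockdown, and also covered DNAAF3 and SYT5, and reached PTPRH. On the other side a wild-type peak of 23 kb, which spans the slow skeletal troponin T gene TNNT1, met knockdown peaks of 19.0 and 3.4 kb. A window this full could hardly show a longer covered length.

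ACTC1 (chr15:34790230-34795549) encodes cardiac alpha actin, the filament on which myosin moves. It had 1 peak in each list, of 5.40 kb in the wild type (score 44.2) and 8.60 kb in the knockdown (score 19.9). The wild-type peak lay wholly inside the knockdown peak, and both covered all 3 listed starts. The difference of 3.20 kb was reached or passed by 10.4% of protein-coding genes and lay mostly outside the gene span, where the covered length was 2.45 against 5.45 kb. In the span itself 2.95 and 3.15 kb were covered. The longer knockdown peak ranked lower in its own list, at score percentile 61.4, than the wild-type peak in its list, at 77.6.

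ACTN2 (chr1:236686499-236764631) encodes alpha-actinin 2, which crosslinks actin filaments in the Z disc. Each list had 1 peak, of 4.2 kb in the wild type (score 118) and 4.60 kb in the knockdown (score 97.2), over the CpG-rich start. They had 3.8 kb in common. No other peak lay in the 118 kb window, so peaks held 1.92% of the gene span in wild-type cells against 2.95% after knockdown.

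The natriuretic peptide genes had the largest relative differences of the 10, -85.7% at NPPA and -87.1% at NPPB, with MYH7 next at -84.4%. NPPA (chr1:11845709-11847783) encodes atrial natriuretic peptide and NPPB (chr1:11857464-11858945) B-type natriuretic peptide. The NPPA window held 12.6 kb in 3 wild-type peaks and 1.80 kb in 1 knockdown peak, and the NPPB window 13.9 kb in 4 wild-type peaks and the same 1.80 kb. The knockdown peak (chr1:11858201-11860000, score 13.3) lay inside the wild-type peak over NPPB (chr1:11856601-11860400, score 16.2). In the wild type the NPPB span was wholly covered, and in the knockdown 50.3% of it. NPPA itself lay in no peak. Its start, printed above, was 1.82 kb from the nearest wild-type peak and 10.4 kb from the nearest knockdown peak. All 4 wild-type scores were below the median of the list, and in the upper 50% by score both windows were empty in both lists. With equal covered length the difference was -5 kb at NPPA and -6.345 kb at NPPB.

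Within the spans alone, 1 of the 10 genes had no wild-type peak, NPPA, against 28.6% of protein-coding genes. Without a knockdown peak in the span were 2, NPPA and MYH7, against 28.0%. Over the 8 loci the bases inside the member genes were 64.2 kb in wild-type cells against 43.4 kb after knockdown (-32.5%). Inside other protein-coding genes of the windows they were 70.7 and 62.2 kb (-12.1%), and between genes 76.4 and 60.1 kb (-21.3%). In the spans of all protein-coding genes the mean covered length differed by -15.9%. The members' total includes MYH6, picked on its lower covered length, with 9.29 kb in wild-type cells against 1.80 kb after knockdown. The spans of the 4 myosin genes and of NPPB had shorter covered lengths in the knockdown, those of TNNT2, ACTC1 and ACTN2 longer ones, and that of TNNI3 the same.

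Of the 30 wild-type peaks in the windows, 21 (70.0%) touched a knockdown peak, against 71.4% of the whole wild-type list. Of the 21 knockdown peaks, 20 (95.2%) touched a wild-type peak, against 74.1% of the whole list. The only knockdown peak that touched none was that beyond MYH7, of 2.0 kb. The 9 wild-type peaks without a counterpart had a median width of 3.20 kb and a median score of 6.76, with a highest score of 15.2. The 21 others had medians of 5.80 kb and 31.6. Bases covered in the wild type alone summed to 68.7 kb over the loci, of which 66.0% lay in peaks below the list's median score, against 53.8% in the whole list. That share was 100% at NPPA and NPPB, 87.8% at MYL2, 80.2% at MYH6 and MYH7, and 63.9% at TNNT2. At MYL3 it was 0% of 12 kb. Bases covered in the knockdown alone summed to 23 kb, of which 15.7% lay in peaks below that list's median, against 63.9% in the whole list. The loci thus differed in whether weak or strong wild-type peaks were shorter or missing in the knockdown list.

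Promoters added a view of the starts alone. The promoter table used here held starts of 7 of the 10 genes, 10 starts in all. Of these, 3 belong to ACTC1 and lay in the same peak in each list, so they are not separate observations. The promoters of MYH7, MYL2 and NPPB were not analysed here. Of these 10 promoters, 9 lay in a wild-type peak, against 62.6% of all listed promoters, and 7 in a knockdown peak, against 62.9%. The 2 in the wild type alone were those of MYH6 and the inner start of MYL3. The ratio of observed to expected CpG was 0.948 at ACTN2 and 0.876 at the upper MYL3 start. It ran from 0.120 to 0.487 at the other 8. A ratio of at least 0.6, a usual mark of CpG islands, was found at 62.2% of all promoters. Among all promoters below 0.6, 35.4% lay in a wild-type peak and 33.3% in a knockdown peak, and of those at or above it 79.1% and 80.9%. Of the 8 member promoters below 0.6, those of TNNT2, TNNI3 and ACTC1 lay in peaks of both lists, and that of NPPA in neither.

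**Figure D3:**
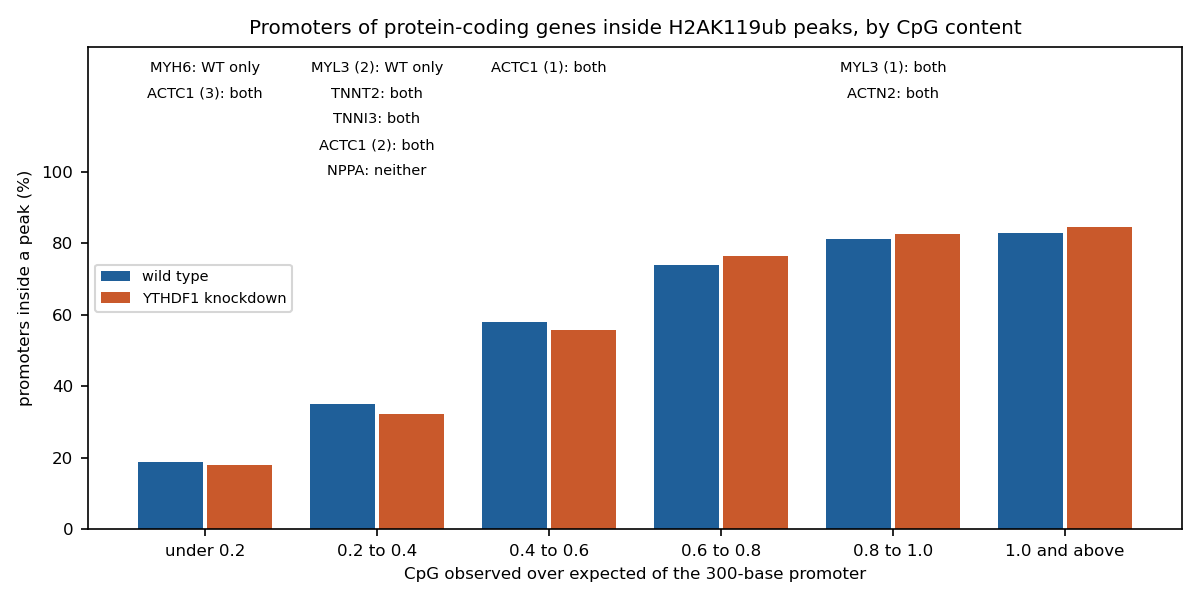
Percent of all listed promoters of protein-coding genes inside a peak (y axis), by the ratio of observed to expected CpG (x axis), for the wild-type and knockdown lists. The names above give the member promoters of each bin and the list that holds them, with (1) to (3) numbering the listed starts of a gene from its higher-coordinate end. The share of promoters in a wild-type peak goes from 18.9% in the lowest bin to 82.9% in the highest, and 8 of the 10 member promoters stand in the 3 lowest bins.

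**Figure D4:**
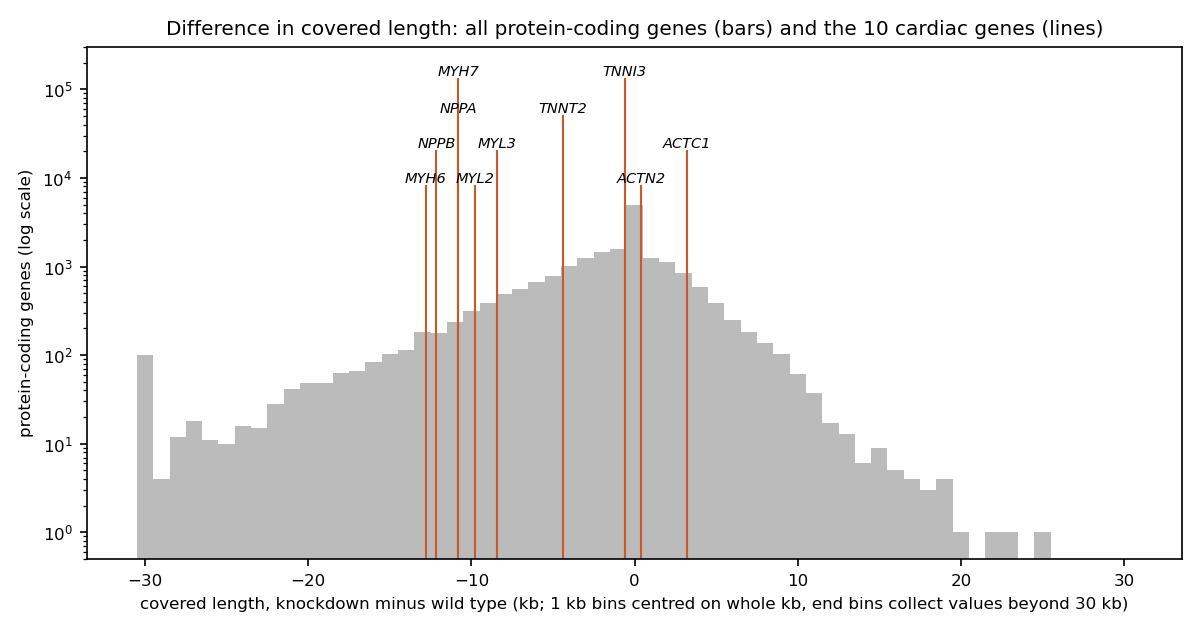
Difference in covered length (kb, knockdown minus wild type, x axis) for 19821 protein-coding genes, as counts on a log scale, with an orange line at each of the 10 members. The lines of MYH6, NPPB, MYH7, NPPA, MYL2 and MYL3 lie between -12.8 and -8.40 kb, where the bars are lower than at 0, and that of ACTC1 lies at 3.20 kb.

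Muscle genes outside the 10 were described by 6 lists. Pairs of covered lengths in these lists stand as knockdown against wild type. The 24 other cardiac sarcomere genes had 10 members at least 1 kb lower and 7 at least 1 kb higher, with a median difference of 0 kb. LDB3, a Z disc gene, had 42.3 against 48.5 kb. The largest decrease was at NEBL, which encodes nebulette, with 22.5 against 36.3 kb. The largest increase was at FHOD3, an actin assembly factor gene, with 22 against 6.80 kb. TTN, which encodes titin, had 2.6 kb against none. Unlike the 10 members, CSRP3, MYOZ2 and LMOD2 had no peak in either list.

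The 25 skeletal sarcomere genes had 15 lower and 4 higher members and a median difference of -1.20 kb. TNNT1 and TNNI1 of this list share peaks with the windows of TNNI3 and TNNT2, so the list is not fully separate from the 10 genes. The skeletal myosin heavy chain genes MYH1, MYH2, MYH4 and MYH8, relatives of MYH6 and MYH7, had no peak in their windows in either list. Without a peak in either were 5 of the 25 genes here, and 3333 of 19821 protein-coding genes. MYH7B, a myosin heavy chain gene of the other cardiac sarcomere list, had 25.8 against 23.2 kb. TNNT3, the fast skeletal troponin T gene, had the largest decrease, with 16.2 against 34.6 kb, and MYH3, the embryonic myosin, the largest increase, with 4.80 kb against none. MYBPC2, a myosin binding protein gene, had 50.7 against 60.7 kb, and the creatine kinase gene CKM 43.5 against 54.9 kb. Of all listed muscle genes outside the 10, TNNT3 had the pair of covered lengths nearest to that of MYH6, at a distance of 3.97 kb over the 2 libraries. GATA6 followed at 5.51 kb and NEBL at 5.89 kb. Nearest to TNNT2 were TCAP at 2.26 kb, PRKG1 at 3.01 kb and SMTN at 3.49 kb.

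The 24 cardiac transcription factor genes all had peaks in both lists, with 13 lower, 6 higher and a median difference of -1.40 kb. GATA4 had 75.4 against 95.0 kb, the largest decrease, MEF2D 49.9 against 53.9 kb, and IRX4, a ventricular homeobox gene, 38 against 32.6 kb, the largest increase. The 23 genes of cardiac calcium handling and conduction had 9 lower and 9 higher members and a median difference of 0 kb. Their largest decrease was at CACNA1C, the L-type calcium channel gene, with 78.2 against 95.0 kb, and their largest increase at CACNB2, with 6.20 against 2.80 kb. The potassium channel gene KCNJ5 had 65.0 against 65.6 kb.

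The 10 natriuretic peptide pathway genes, which include receptors and the processing proteases, had 4 lower and 2 higher members and a median difference of -0.600 kb. The largest decrease was at FURIN, a protease gene, with 16.7 against 25.3 kb. NPPC, which encodes C-type natriuretic peptide, had the largest increase, with 16.2 against 13.8 kb, while its relatives NPPA and NPPB had the lower values given above. PRKG1, which encodes a cGMP-dependent kinase, had 34.2 against 36.4 kb. The 13 smooth muscle genes had 7 lower and 2 higher members and a median difference of -2.40 kb. Their largest decrease was at CALD1, which encodes caldesmon, with 1.40 against 15.4 kb, and their largest increase at CNN1, which encodes calponin, with 19.0 against 16.8 kb. SMTN had 34.7 against 35 kb and LMOD1 12.4 against 24.4 kb. Over all genes of the 6 lists, 48.7% were at least 1 kb lower and 25.2% at least 1 kb higher, near the shares of all protein-coding genes. The lists differed from each other. Mean covered length differed by -27.0% for the smooth muscle and -20.2% for the skeletal sarcomere genes, against -28.3% for the 10 members. In the remaining lists it differed by -8.64% to -0.792%.

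**Figure D5:**
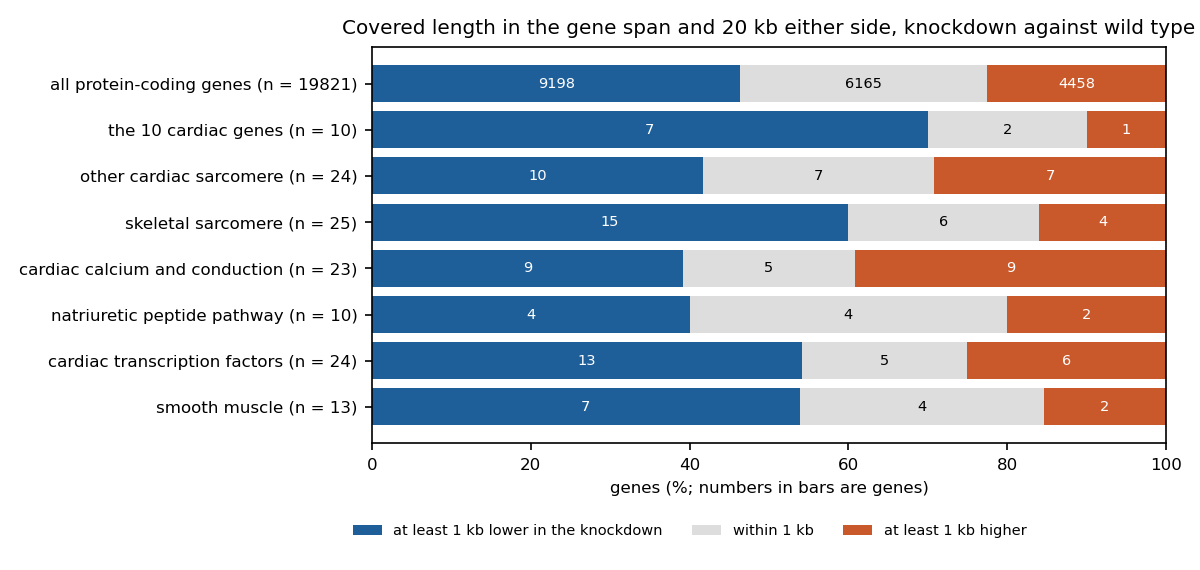
Percent of genes (x axis) whose covered length was at least 1 kb lower in the knockdown (blue), within 1 kb (grey) or at least 1 kb higher (orange), for all protein-coding genes, the 10 cardiac genes and 6 lists of muscle genes, with the number of genes in each bar. The 10 cardiac genes have 7 lower and 1 higher member, and the calcium and conduction genes 9 of each.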

How the data were processed

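H2AK119ub chromatin immunoprecipitation sequencing of wild-type and YTHDF1 shRNA H1 cells was analysed from 1 peak list per library. The 2 input libraries were not analysed here. Per the submitters' processing notes the build was hg38, and the tools included the peak callers SICER 1.1 and MACS2 2.1.0, besides Bowtie2 2.2.5, Trimmomatic 0.35, Picard and SAMtools 1.3.1. Their roles, the caller behind the lists and any use of the input are not stated there. The deposited lists give each peak's position and a score from 2.00 to 1000, the authors' own value, whose unit is unknown. It ranks peaks within 1 list only. Ends were read as inclusive, since all starts and ends fit 200 bp bins. Peaks on chromosomes 1 to 22 and X were kept (32791 of 32798 and 34390 of 34393).

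Gene spans came from RefSeq (GRCh38.p14, which shares coordinates with hg38), without 153 protein-coding genes with scaffold coordinates. Covered length is the number of bases of a window inside peaks, and peaks with at least 1 bp in common were taken as touching. With 1 library per group no test was run. The members and gene lists were chosen with earlier results of these data known. Named genes are the members, the 2 genes of each list with the longest wild-type covered length, the genes of it with the largest decrease and the largest increase (1 kb or more), the 3 genes nearest to MYH6 and to TNNT2, and genes sharing a peak with a member. 1 gene that this rule names is not reported here. TTN, CSRP3, MYOZ2, LMOD2, MYH7B, MYH1, MYH2, MYH4 and MYH8 were named after their values were seen. The interval code was tested on simulated data. Python 3.11.15, pandas 2.3.3 and numpy 2.4.6 were used.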

Additional observations from a re-analysis of the deposited data

How the results depend on the processing

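At least 7 of the 10 windows held a peak in each list under every alternative. The count of members at least 1 kb lower was 4 in the gene span alone (29.8% of all protein-coding genes), 2 in the upper 50% of peaks by score (39.3%), 4 with lists of equal covered length (35.7%), 9 with 50 kb either side (51.8%) and 8 by peak midpoints (45.4%). The count at least 1 kb higher was 2 in the upper 50% (19.7%) and 3 with equal covered length (32.4%). The mean difference was -2.09 kb in the span alone, -5.64 kb with 10 kb and -10.6 kb with 50 kb either side, 0.62 kb in the upper 50% by score and -1.63 kb with equal covered length. It was -6.81 kb with peaks of at least 2 kb, -6.92 kb by peak midpoints, -7.19 kb with peaks under 2 kb apart joined and unchanged with equal numbers of peaks. After the data were seen, MYH6 was left out (-5.93 kb) and MYH7 and NPPB were left out to give 1 value per locus (-5.40 kb). The direction turned at TNNT2 in the span alone (1.60 kb), in the upper 50% (14 kb) and with equal covered length (3.8 kb). It also turned at MYH6 in the upper 50% (0.2 kb) and at MYL2 with equal covered length (3 kb). The small difference at ACTN2 changed sign with 50 kb either side (-1.40 kb), and that at TNNI3 with peaks under 2 kb apart joined (0.2 kb). MYL3 was lower under all 9 alternatives and ACTC1 higher under all 9. With at least 50% of both peaks in common, 13 wild-type and 13 knockdown peaks were shared. Why the values changed between these settings was not tested. Depth is unknown, so a weak peak listed in 1 library could have been missed in the other. No paired analysis was possible because each group has 1 H2AK119ub library, and for the same reason no replicate could be left out.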

Other observations

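Some muscle genes of the lists had peaks in 1 list alone. Over all genes of the 6 lists, 7 had peaks in the knockdown alone and 2 in the wild type alone. Of the 19821 protein-coding genes, 756 had peaks in the knockdown alone and 663 in the wild type alone. Among the 23 calcium and conduction genes, 4 had peaks in the knockdown alone and 0 in the wild type alone. Whether these shares differ from that of all genes was not tested. SLN, CASQ2, TRDN and GJA5, genes of calcium handling and of the atrial gap junction, had 2.80, 2.2, 0.8 and 3 kb in the knockdown and none in the wild type. MYH13 had 2.2 kb in the knockdown alone. NEB, which encodes nebulin, and ACTG2, which encodes an enteric smooth muscle actin, had 4.2 and 7.60 kb in the wild type alone. PLN, SLN's relative in the control of the calcium pump, had no peak in either list. These genes were picked after their values were seen.

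Among the cardiac transcription factor genes, TBX5 had 31.0 kb in 1 knockdown peak and 47.4 kb in 5 wild-type peaks, while NKX2-5 had 35.2 kb in 3 knockdown peaks and 30.6 kb in 1 wild-type peak. HAND1 had 28.8 against 31.0 kb and HAND2 37.7 against 36.3 kb. The spans of NKX2-5, HAND1 and HAND2 were wholly covered in both lists, with 3.10, 3.26 and 4.14 kb, so their differences lay in the flanks. These genes were also picked after their values were seen.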
